A study of Homo sapiens with 24 samples.

Results

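The third day of EZH2 inhibition in KARPAS-422 cells was examined by setting 3 arrays of cells kept in inhibitor for 3 days against 3 arrays of cells kept in it for 2 days. These are 6 of the 24 arrays of a time course, and all 19775 genes with a probe set of a single symbol were compared, each through its brightest probe set on average across the 24 arrays. KARPAS-422 is an established human cell line of diffuse large B-cell lymphoma, and all groups used here carry the label genotype EZH2 Y641N, a substitution in the catalytic domain of EZH2. The inhibitor arm received an EZH2 inhibitor at 5 uM, and the control arm received the solvent DMSO. The groups are inhibitor day 3, inhibitor day 2, DMSO day 3 and DMSO day 2, with 3 arrays each. Arrays of days 1 and 6 of both arms, also 3 per group, entered the shared estimate of the spread and are shown as a description. The labels call the replicates biological without saying that they came from separate cultures, so the p-values measure the spread between these arrays. The model is 1 line with 1 genotype, and lines without the EZH2 substitution were not analysed here.

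EZH2 is the methyltransferase of Polycomb repressive complex 2 (PRC2), which places a repressive methyl mark on histone tails. Germinal centre B cells depend on it, and substitutions of this residue raise the level of the fully methylated mark in lymphoma. After the enzyme is blocked the mark is lost mainly as chromatin is diluted by cell division, and silent genes respond over days.

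Over the third day, 246 genes rose and 167 fell in the inhibitor arm (limma, Benjamini-Hochberg adjusted p under 0.05), which are 1.24% and 0.845% of the genes tested and 2.09% together. The genes that rose moved further than those that fell. Their median difference was 0.55 (0.27 to 2.14, log2), and 37 rose at least 2-fold (0.187% of genes), led by the RNA sensor IFIH1, the histone gene H2AC6, the surface protein gene HEPACAM2 and the endocytic regulator RIN2. The genes that fell had a median difference of -0.34 (-0.53 to -0.21, log2), and 0 of them reached 2-fold. On the 3 inhibitor day 3 arrays, 237 of the 246 genes that rose lay above all inhibitor day 2 arrays, and all 167 that fell lay below them, against 1544 (7.81%) and 2442 (12.3%) of all genes. The same arrays selected these genes, so this separation largely follows from the selection and is no further support. The same holds where the separation of a single called gene is given below. At an unadjusted p under 0.05, 2992 genes differed (15.1%), 1273 of them higher (6.44%) and 1719 lower (8.69%). The median gene differed by -0.03 in the inhibitor arm and by -0.03 in the DMSO arm.

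**Figure D1:**
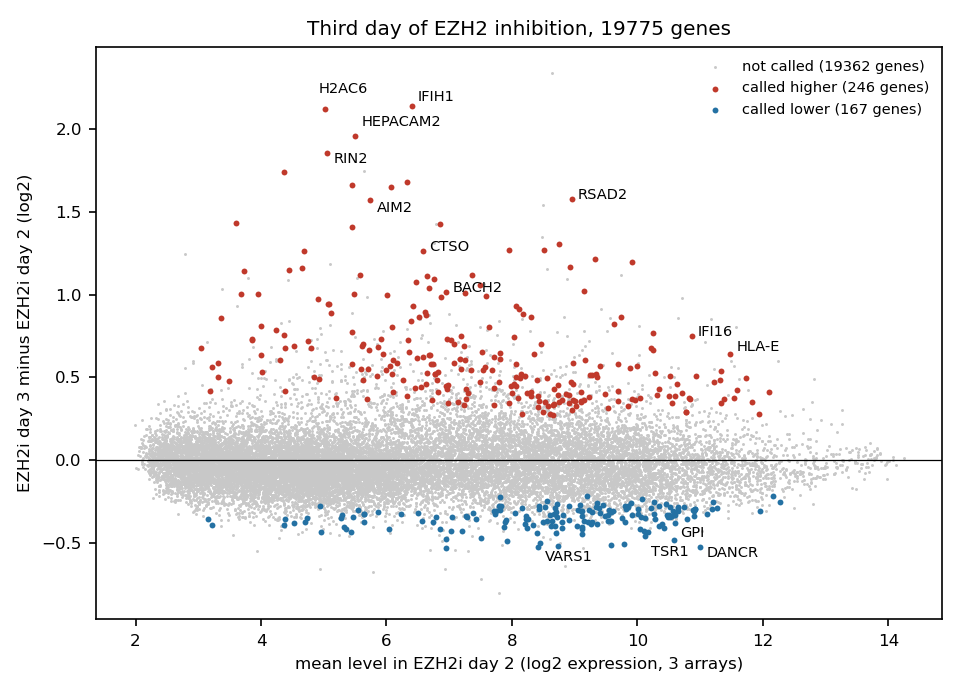
Difference between inhibitor day 3 and inhibitor day 2 (log2, vertical axis) of each of 19775 genes against its mean level on the 3 inhibitor day 2 arrays (log2 expression, horizontal axis), with the 246 genes that rose and the 167 that fell in colour. The genes that rose spread up to 2.14 while those that fell stay between -0.53 and -0.21.

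How many genes passed the test depended on single arrays. Without inhibitor day 3 replicate 1, 379 genes rose and 218 fell. Without inhibitor day 3 replicate 2 the counts were 31 and 5, and without replicate 3 they were 21 and 5. Leaving out inhibitor day 2 replicate 1, 2 or 3 gave 42 and 17, 63 and 28, and 143 and 53. Arrays with the same replicate number deviated together, and not in the inhibitor arm alone. Over all pairs of groups the median correlation of deviations was 0.24 for the same number and -0.13 for different numbers. With the number as a block 634 genes rose (3.21%) and 521 fell (2.63%). Every gene named by rule kept its side of the threshold for the inhibitor step under the block. When only the arrays of these groups were fitted, 13 genes rose and 0 fell, and 65 of the genes named by rule lost their calls, IFIH1 (adjusted p = 0.0741), RIN2 (0.0692), TSR1 (0.0727) and VARS1 (0.0692) among them, while AIM2 (0.0249), BACH2 (0.0169) and CTSO (0.0350) kept theirs. The counts of called members of the interferon-stimulated, MHC class I, histone, quiescence, cell cycle, ribosome and cholesterol lists given below were all 0 in that fit. Statements below that a call held or was lost without a single array refer to the fit over all groups without a block. Leaving out an array also makes its group smaller, so a lost call does not by itself single out that array.

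In DMSO the same day step passed the test for 0 genes by limma, with 1493 genes at an unadjusted p under 0.05 (7.55%, of which 508 higher, 2.57%, and 985 lower, 4.98%) and a lowest adjusted p of 0.114. The test of the difference between the arms also called 0 genes, with 1314 genes at an unadjusted p under 0.05 (6.64%) and a lowest adjusted p of 0.126. With the number as a block within each arm, 613 genes rose in inhibitor (3.1%) and 475 fell (2.4%), and the test between the arms called 15 genes higher (0.0759%) and 2 lower. With the replicate block over both arms that test called 9 genes higher (0.0455%), among them AIM2, H2AC6, H2BC5 and TP53INP1, and 2 lower (0.0101%). Under the block over both arms the adjusted p of the difference between the arms was 0.00636 for AIM2 and H2BC5, 0.0114 for TP53INP1 and 0.0156 for H2AC6. Under the block within each arm it was also below 0.05 for IFIH1 (0.0382), CASP1 (0.0379), GADD45A (0.0177) and H4C8 (0.00637). The genes called in the inhibitor arm had a median DMSO step of 0.10 where they rose and of -0.07 where they fell. Of the 246 that rose, 185 had a DMSO step above 0, against 7732 of all 19775 genes. For the 167 that fell this number was 37. At an unadjusted p under 0.05 (limma), 50 of the 246 were higher in DMSO and 2 lower, against 2.57% and 4.98% of all genes. Of the 167, 14 were lower in DMSO and 1 was higher. Of the genes called in inhibitor, 165 of the 246 and 119 of the 167 differed between the arms at an unadjusted p under 0.05. All of these differences had the direction of the inhibitor step. That step selected the genes and is also part of the difference between the arms, so these counts are not independent of the selection. Over all genes, 1270 of the 1314 such differences had the direction of the inhibitor step. Whether the third day differed from the second day within the inhibitor arm was tested too, and 0 genes passed (696 at an unadjusted p under 0.05, 3.52%, of which 269 higher, 1.36%, and 427 lower, 2.16%, with a lowest adjusted p of 0.420). The inhibitor day 2 arrays enter both of those steps.

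Cytosolic and endosomal sensors of nucleic acids, which start the interferon response to viral or misplaced RNA and DNA, were among the genes that rose most. IFIH1 (probe set 219209_at), the cytosolic sensor of long double-stranded RNA also called MDA5, read 7.81, 9.30 and 8.51 on the inhibitor day 3 arrays (log2 expression, replicates 1, 2 and 3), against 6.17, 7.03 and 6.01 at inhibitor day 2. All 3 arrays of day 3 lay above those of day 2, a difference of 2.14 ± 0.29 (log2, SE) or 4.41-fold (adjusted p = 0.00142). In DMSO its level was 3.85, 4.40 and 3.96 at day 3 and 4.08, 3.98 and 3.50 at day 2, so that the inhibitor arrays stood above every DMSO array on both days. The inhibitor step exceeded the DMSO step by 1.93 ± 0.41 (unadjusted p = 0.000123, adjusted p = 0.192). IFIH1 had already risen over the second day of inhibition, by 1.65 (adjusted p = 0.00753), and its call at the third day held without any single array (adjusted p up to 0.0166).

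The promoter of IFIH1 is shown because it carries, in the 250 bases before the start, the letters of the interferon-stimulated response element at more than 1 place. Capitals mark the letters GAAA followed, after any 2 bases, by GAAA again, on either strand, the core to which STAT and IRF factors bind. The other promoters are short windows of genes that rose, around the match nearest to the far end. All come from RefSeq windows on GRCh38.p14 and are written 5′ to 3′ on the strand of the gene.
IFIH1 (chr2:162318685-162318934, minus strand): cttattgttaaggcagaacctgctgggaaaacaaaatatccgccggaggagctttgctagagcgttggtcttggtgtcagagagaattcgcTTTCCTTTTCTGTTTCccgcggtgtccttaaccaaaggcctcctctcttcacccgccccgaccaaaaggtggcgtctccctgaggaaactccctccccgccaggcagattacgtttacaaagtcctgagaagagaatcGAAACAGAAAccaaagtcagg
AIM2 (chr1:159076922-159076981, minus strand): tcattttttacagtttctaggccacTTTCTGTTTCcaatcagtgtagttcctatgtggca
TNFSF10 (chr3:172523583-172523642, minus strand): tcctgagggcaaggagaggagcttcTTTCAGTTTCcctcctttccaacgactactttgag
RTP4 (chr3:187368318-187368377, plus strand): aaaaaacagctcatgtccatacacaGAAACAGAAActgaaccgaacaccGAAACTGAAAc
LGALS3BP (chr17:78979947-78980006, minus strand): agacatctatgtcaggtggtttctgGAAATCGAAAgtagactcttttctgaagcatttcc
IFIH1 holds 3 matches, of which the 2 farther from the start overlap, and the first begins 159 bases before the start. In AIM2 and TNFSF10 the match begins 190 and 187 bases before it, in RTP4 the first begins 42 and in LGALS3BP 58 bases before it.

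Of the 246 genes that rose, 129 have a single RefSeq window of 250 bases before and 50 after the start, and 20 of these windows (15.5%) hold this pattern on either strand. The letters occur in 0 of 108 windows of genes that fell and in 347 of 11469 windows of all genes tested (3.03%). Among the measured interferon-stimulated effectors, whichever way they moved, 22 of 29 windows hold them (75.9%). A match is a description of the letters and not a measured binding site.

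AIM2, a sensor of cytosolic DNA that starts an inflammasome, read 6.85, 7.57 and 7.51 at inhibitor day 3, against 5.69, 5.79 and 5.74 at inhibitor day 2. The groups did not overlap, and the rise was 1.57 ± 0.24 (adjusted p = 0.00236). In DMSO AIM2 differed by -0.46 ± 0.24, and the 2 arms differed by 2.03 ± 0.34, the lowest adjusted p of that test over all genes (0.126). IFI16, a DNA sensor of the nucleus and cytosol, stood at 11.29, 11.78 and 11.79 at inhibitor day 3 and at 10.68, 10.84 and 11.09 at inhibitor day 2. It rose by 0.75 ± 0.16 (adjusted p = 0.0165), a call that was lost without inhibitor day 2 replicate 1 or 2 or day 3 replicate 2 or 3 (adjusted p up to 0.105).

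TLR7, the endosomal receptor for single-stranded RNA, read 7.06, 8.05 and 8.06 at inhibitor day 3, against 5.74, 6.33 and 6.15 at inhibitor day 2. It rose by 1.65 ± 0.27 (adjusted p = 0.00474, and 0.0539 without inhibitor day 3 replicate 3). Its other probe set differed by 0.71 ± 0.20. In DMSO TLR7 read 5.36, 6.35 and 6.29 at day 3 and 5.02, 4.89 and 4.56 at day 2. That DMSO step was 1.18 ± 0.27 and did not pass the test, and the arms differed by 0.47 ± 0.39 (unadjusted p = 0.235).

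The 4 genes IFIH1, TLR7, AIM2 and IFI16 were the members called among 22 measured nucleic acid sensors and adaptors (18.2%, against 1.24% of all genes). The median member differed by 0.07, and with the replicate block 6 members rose. TLR9, the receptor for unmethylated DNA, averaged 7.65 ± 0.30 at inhibitor day 3 and 7.63 ± 0.24 at inhibitor day 2 (SD, n = 3 each). The adaptors MAVS and STING1 differed by 0.03 ± 0.08 and 0.05 ± 0.10, and the DNA sensor CGAS by -0.27 ± 0.15. RIGI, which senses short double-stranded RNA, differed by 0.65 ± 0.23 without passing (adjusted p = 0.160).

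Among interferons, their receptors, STATs and IRFs, 1 of 26 measured members rose (3.85%, against 1.24% of all genes), and 4 with the replicate block. It was IRF2, an IRF that can both repress and activate interferon-responsive promoters, with 7.79, 7.98 and 8.11 at inhibitor day 3 and 7.45, 7.42 and 7.59 at inhibitor day 2. Its rise was 0.47 ± 0.11 (adjusted p = 0.0240), and the call was lost without inhibitor day 2 replicate 1 or 2 or day 3 replicate 2 or 3 (adjusted p up to 0.148). The transcript of interferon beta, IFNB1, read 4.42, 4.98 and 4.88 at inhibitor day 3 and 4.21, 4.48 and 4.32 at inhibitor day 2. These levels are near or below the median probe set of the arrays (4.96 to 5.03), and the difference of 0.42 ± 0.28 was within the spread (adjusted p = 0.512). IRF7 and IRF9, which drive the later interferon response, differed by 0.53 ± 0.30 and 0.30 ± 0.27 without passing.

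Interferon-stimulated effectors, the antiviral and ubiquitin-like proteins made downstream of interferon receptors, had the highest median difference of the lists with more than 20 members measured. Of 51 measured members, 14 rose and 0 fell (27.5%), 50 of the differences were above 0, and the median difference was 0.60, against 0.05 in DMSO. With the replicate number as a block, 31 members rose. The count depended on the array left out: it was 25 without inhibitor day 3 replicate 1, 11 without inhibitor day 2 replicate 3, 1 without day 2 replicate 1 or 2, and 0 without day 3 replicate 2 or 3. The difference between the arms was above 0 at an unadjusted p under 0.05 for 22 members and below 0 for 0. Over all genes these shares were 3.5% and 3.14%. The inhibitor step is part of that difference.

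The median member, set against its own inhibitor day 2 mean, stood at 0.28, 0.85 and 0.79 on inhibitor day 3 replicates 1, 2 and 3, and at -0.23, 0.01 and 0.23 on the inhibitor day 2 arrays. On the DMSO arrays it stood at -0.85, -0.78 and -0.63 at day 3 and at -0.62, -0.92 and -0.79 at day 2. Inhibitor day 3 replicate 1 thus lay between the inhibitor day 2 arrays and the other arrays of its group for these genes. What sets this array apart was not tested.

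RSAD2, which encodes the antiviral enzyme viperin, read 9.64, 11.06 and 10.90 at inhibitor day 3, against 8.72, 8.86 and 9.28 at inhibitor day 2. The groups did not overlap and the rise was 1.58 ± 0.33 (adjusted p = 0.0170), while the DMSO step was -0.03 ± 0.33. IFIT2, an RNA-binding inhibitor of translation, stood at 9.33, 10.60 and 10.24 at inhibitor day 3 and at 8.41, 8.75 and 9.09 at inhibitor day 2. RTP4, a chaperone of membrane receptors induced by interferon, stood at 8.37, 9.83 and 9.44 at inhibitor day 3 and at 7.55, 8.07 and 8.22 at inhibitor day 2. IFIT2 rose by 1.31 ± 0.27 and RTP4 by 1.27 ± 0.26 (adjusted p = 0.0194 and 0.0157). LGALS3BP, a secreted galectin-binding glycoprotein, averaged 8.28 ± 1.00 at inhibitor day 3 and 6.85 ± 0.51 at inhibitor day 2 (SD, n = 3 each). Its rise of 1.42 ± 0.34 (adjusted p = 0.0338) came with overlapping groups, since replicate 1 of day 3 lay below replicate 3 of day 2. RSAD2, IFIT2 and LGALS3BP lost their calls without inhibitor day 2 replicate 1 or 2 or day 3 replicate 2 or 3, and RTP4 without day 2 replicate 1 or day 3 replicate 2 or 3 (adjusted p up to 0.108, 0.120, 0.198 and 0.108).

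The other effectors that rose were MX2, IFI44L, USP18, SP140, SAMD9L, ISG20, IFITM2, IFITM3, EIF2AK2 and LAMP3, by 0.50 to 1.21. EIF2AK2, the double-stranded RNA-dependent kinase PKR, rose by 0.51 ± 0.13, and USP18, the protease that removes ISG15 from proteins and damps the interferon receptor, by 1.17 ± 0.26. The brightest effectors did not pass. ISG15 read 13.42, 13.59 and 13.66 at inhibitor day 3 and 13.21, 13.22 and 13.35 at inhibitor day 2, near the highest value of the whole table (14.33), and differed by 0.30 ± 0.26. IFI27 had the largest difference of all genes, 2.34 ± 0.68, but ranged over 8.99, 11.50 and 12.43 at inhibitor day 3 and 7.64, 8.22 and 10.04 at inhibitor day 2, and its adjusted p was 0.0775 (0.00506 with the replicate block).

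**Figure D2:**
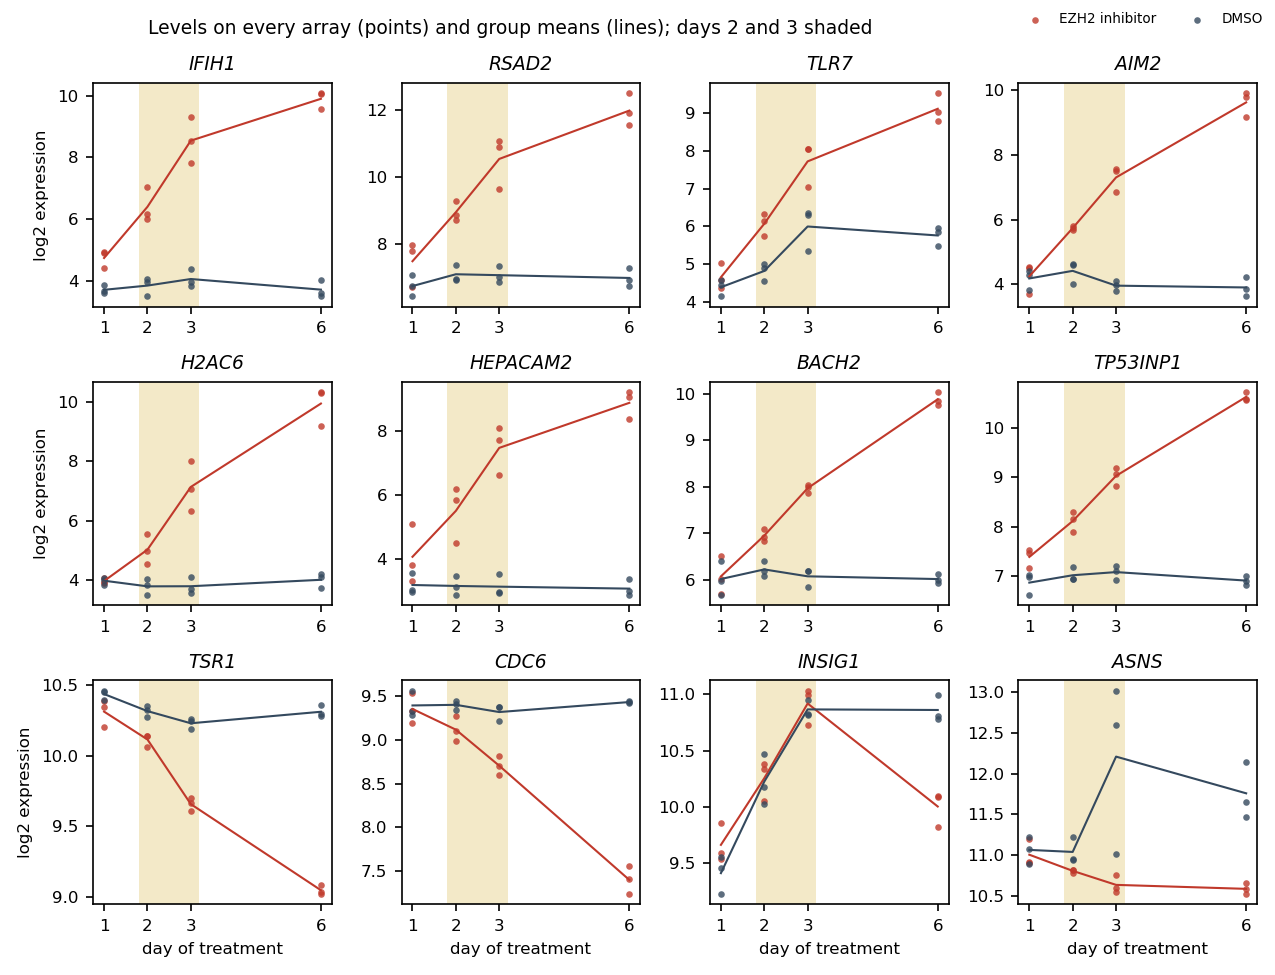
Level of 12 genes (log2 expression, vertical axes) by day of treatment (1, 2, 3 and 6) on each array, with inhibitor arrays and DMSO arrays as points and their means as lines. IFIH1 climbs at every inhibitor day while its DMSO level stays flat, TLR7 and INSIG1 are also higher in DMSO at day 3 than at day 2, and ASNS is high in DMSO on replicates 2 and 3 of day 3.

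Genes of MHC class I antigen presentation rose by smaller amounts. Of 18 measured members, 4 rose (22.2%) and 0 fell, 16 differences were above 0, and the median was 0.20, against 0.01 in DMSO. HLA-E, a class I molecule read by inhibitory receptors of NK cells, stood at 11.74, 12.31 and 12.31 at inhibitor day 3 and at 11.37, 11.64 and 11.44 at inhibitor day 2, a rise of 0.64 ± 0.12 (adjusted p = 0.00929). HLA-C rose by 0.41 ± 0.08, with 12.33, 12.64 and 12.55 at inhibitor day 3 and 12.08, 12.10 and 12.10 at inhibitor day 2. The peptide transporter genes TAP2 and TAP1 rose by 0.51 ± 0.10 and 0.37 ± 0.09 (adjusted p = 0.00968 and 0.0418). The other probe sets of TAP2 differed by 0.08 to 0.16. In all 4 genes the inhibitor day 3 arrays lay above the inhibitor day 2 arrays, with replicate 1 the lowest of day 3. B2M, which encodes the light chain shared by class I molecules, at 13.73, 13.83 and 13.89 at inhibitor day 3 and 13.68, 13.70 and 13.75 at inhibitor day 2, differed by 0.11 ± 0.06 without passing. The number of members that rose was 6 with the replicate block, 9 without inhibitor day 3 replicate 1, 1 without day 2 replicate 1, and 0 without day 3 replicate 2 or 3. HLA genes are alike in sequence, and cross-hybridisation between their probe sets was not tested. HLA-E and HLA-C lost their calls without inhibitor day 2 replicate 1 or day 3 replicate 2 or 3, TAP2 without day 3 replicate 2 or 3, and TAP1 without any array of the 6 except day 3 replicate 1 (adjusted p up to 0.0740, 0.0763, 0.0740 and 0.206). Of 16 measured MHC class II genes 0 rose and 0 fell by limma (2 rose with the replicate block), and their median difference was 0.09.

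Some replication-dependent histone genes, which lie in clusters and whose standard transcripts carry no poly(A) tail, rose too. Of 33 measured, 4 rose (12.1%) and 0 fell, and 9 rose with the replicate block. The list as a whole had a median of 0.08, against 0.05 in DMSO, and 12 differences were below 0. H2AC6 (probe set 215071_s_at) read 6.33, 7.07 and 8.02 at inhibitor day 3, against 4.55, 4.97 and 5.54 at inhibitor day 2 and 3.57, 3.68 and 4.10 at DMSO day 3. It rose by 2.12 ± 0.32 or 4.34-fold (adjusted p = 0.00236), and the call held without any single array (adjusted p up to 0.0229). H2BC5 read 9.18, 9.91 and 10.23 at inhibitor day 3 and 8.17, 8.58 and 8.77 at inhibitor day 2, and rose by 1.27 ± 0.26. Its other probe set differed by 0.80 ± 0.26. H2BC21 rose by 1.01 ± 0.20 and H4C8 by 0.97 ± 0.23, with inhibitor day 2 means of 3.68 and 4.91. In these 4 genes, which encode histones H2A, H2B and H4, no array of inhibitor day 3 reached down to the inhibitor day 2 arrays. H2BC5 and H4C8 lost their calls without inhibitor day 2 replicate 1 or 2 or day 3 replicate 2 or 3, and H2BC21 without day 2 replicate 1 or 2 or day 3 replicate 3 (adjusted p up to 0.111, 0.177 and 0.0844). Histone genes have near-identical copies, and signal from one copy on the probe set of another cannot be told apart here.

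Several genes with low levels in DMSO rose to clearly higher levels. HEPACAM2, an adhesion protein of the immunoglobulin superfamily, read 6.61, 7.72 and 8.07 at inhibitor day 3 and 4.50, 5.83 and 6.19 at inhibitor day 2, while all DMSO arrays of both days lay between 2.90 and 3.53. It rose by 1.96 ± 0.42 or 3.89-fold (adjusted p = 0.0196), a call lost without inhibitor day 2 replicate 1 or day 3 replicate 2 or 3 (adjusted p up to 0.123). RIN2, which links RAS and the endosomal GTPase RAB5, read 6.30, 7.40 and 7.04 at inhibitor day 3, against 4.57, 5.47 and 5.12 at inhibitor day 2. Its rise of 1.86 ± 0.24 (adjusted p = 0.00142) held without any single array (adjusted p up to 0.0166). GIMAP2, a GTPase of lymphocytes, read 6.30, 7.23 and 7.07 at inhibitor day 3 and 5.62, 5.56 and 5.19 at inhibitor day 2, a rise of 1.41 ± 0.21.

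CTSO, a cysteine protease of the lysosome, read 7.50, 8.13 and 7.92 at inhibitor day 3, against 6.42, 6.72 and 6.61 at inhibitor day 2 and 4.93, 4.99 and 5.17 at DMSO day 3. Its rise was 1.27 ± 0.18 (adjusted p = 0.00180), and it and GIMAP2 kept their calls without any single array (adjusted p up to 0.0229 for both). MPEG1, perforin-2, a pore-forming defence protein, rose by 1.11 ± 0.22, with 7.76 ± 0.52 at inhibitor day 3 and 6.64 ± 0.34 at inhibitor day 2 (SD, n = 3 each). LYZ, the lysozyme gene, stood at 5.78, 6.18 and 5.87 at inhibitor day 3 and at 4.11, 5.28 and 4.65 at inhibitor day 2, a rise of 1.27 ± 0.26 (adjusted p = 0.0157). The other probe set of LYZ differed by 0.37 ± 0.18. LYZ was the 1 member that rose of 11 measured myeloid markers (9.09%, against 1.24% of all genes). The median level of these markers was 3.99 at inhibitor day 3 and 3.93 at inhibitor day 2. MPEG1 lost its call without inhibitor day 2 replicate 1 or 2 or day 3 replicate 2 or 3, and LYZ without day 2 replicate 1 or day 3 replicate 2 or 3 (adjusted p up to 0.102 and 0.0990).

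Of 29 measured genes of costimulation, adhesion and positioning, 2 rose (6.90%), while 4 rose and 2 fell with the replicate block. PECAM1, an adhesion receptor with inhibitory motifs, read 7.20, 8.25 and 8.11 at inhibitor day 3 and 6.38, 7.02 and 6.88 at inhibitor day 2, against a highest DMSO value of 5.33 on those days. CD86, a ligand of the costimulatory receptor CD28, averaged 7.95 ± 0.24 at inhibitor day 3 and 7.19 ± 0.19 at inhibitor day 2 (SD, n = 3 each). PECAM1 rose by 1.09 ± 0.25 and CD86 by 0.75 ± 0.19 (adjusted p = 0.0240 and 0.0429). Either call was lost without any single array of the 6 except inhibitor day 3 replicate 1 (adjusted p up to 0.150 and 0.218).

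Among 27 measured members of the NF-kB response and TNF family, 2 rose (7.41%) and 1 fell (3.7%). Of all genes 1.24% rose and 0.845% fell, and with the replicate block 3 members rose and 3 fell. TNFSF10, the death ligand TRAIL, read 4.04, 5.48 and 5.59 at inhibitor day 3, against 3.60, 3.42 and 3.78 at inhibitor day 2, and all DMSO arrays of these days lay between 3.36 and 3.55. It rose by 1.43 ± 0.27 (adjusted p = 0.0111), after a difference of 0.17 over the second day, so that its third-day step exceeded its second-day step by 1.26 (unadjusted p = 0.0138, adjusted p = 1.00). TNFRSF21, the death receptor DR6, rose by 0.68 ± 0.15 and went on to 8.60 at inhibitor day 6, against 5.06 at inhibitor day 3. NFKBIB, an inhibitor of NF-kB, fell by 0.34 on the log2 scale, a call that did not survive the loss of any of the 6 arrays (adjusted p between 0.0715 and 0.198). TNFSF10 and TNFRSF21 lost their calls without inhibitor day 2 replicate 1 or 2 or day 3 replicate 2 or 3 (adjusted p up to 0.0844 and 0.144).

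BACH2, a transcriptional repressor that holds B cells back from plasma cell differentiation, was the germinal centre and B cell fate factor with the largest rise. It read 7.88, 7.99 and 8.04 at inhibitor day 3, against 7.09, 6.84 and 6.92 at inhibitor day 2 and 5.84, 6.19 and 6.19 at DMSO day 3. The rise was 1.02 ± 0.17 (adjusted p = 0.00490, at most 0.0452 with any single array left out), the DMSO step was -0.15 ± 0.17, and the arms differed by 1.17 ± 0.24 (unadjusted p = 8.77e-05). FOXO1, a factor of the dark zone and of quiescence, rose by 0.36 ± 0.06, with 9.48, 9.43 and 9.49 at inhibitor day 3 and 9.18, 9.06 and 9.09 at inhibitor day 2. Its adjusted p was 0.00763, and 0.0592 without inhibitor day 3 replicate 3. These 2 were the members called of 31 measured (6.45%), 26 of the 31 differences were above 0, and 5 members rose with the replicate block. BCL6, the master repressor of the germinal centre, read 12.83, 12.80 and 12.90 at inhibitor day 3 and 12.80, 12.71 and 12.65 at inhibitor day 2 and did not pass (0.13 ± 0.06). Of 20 plasma cell genes 0 rose and 0 fell by limma (1 rose with the replicate block), and PRDM1, which drives plasma cell differentiation, differed by -0.02 ± 0.10.

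Of 23 measured CDK inhibitors and quiescence genes, 5 rose (21.7%) and 1 fell, with a median of 0.29, against 0.04 in DMSO. With the replicate block 9 rose, and without 1 array the number that rose was between 0 and 6. YPEL5, a subunit of a ubiquitin ligase complex, read 8.61, 9.08 and 9.29 at inhibitor day 3 and 7.93, 7.96 and 8.30 at inhibitor day 2, and rose by 0.93 ± 0.15 (adjusted p = 0.00474, and 0.0575 without inhibitor day 3 replicate 3). The antiproliferative gene BTG1, the thioredoxin inhibitor TXNIP and the atypical cyclin CCNG2 rose by 0.58 ± 0.15, 0.47 ± 0.12 and 0.39 ± 0.09. Their DMSO steps were 0.43, 0.28 and 0.35, and the arms differed by at most 0.19 (unadjusted p = 0.487, 0.258 and 0.740). The calls of BTG1, TXNIP and CCNG2 were lost without any single array except inhibitor day 3 replicate 1 (adjusted p up to 0.179, 0.200 and 0.159). CDKN2A, which encodes p16, fell by 0.21 on the log2 scale, and the CDK inhibitors CDKN1A and CDKN1B differed by 0.18 ± 0.16 and 0.27 ± 0.14 without passing.

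TP53INP1, a stress-induced p53 target that promotes autophagy and cell death, read 8.83, 9.07 and 9.20 at inhibitor day 3, against 7.89, 8.16 and 8.30 at inhibitor day 2. No DMSO array of these days was above 7.22. The rise was 0.91 ± 0.13 (adjusted p = 0.00169, at most 0.0205 with any single array left out), and 2 other probe sets of the gene differed by -0.13 and -0.20. GADD45A, a growth arrest gene, rose by 1.02 ± 0.23, with 9.65, 10.27 and 10.58 at inhibitor day 3 and 8.71, 9.21 and 9.52 at inhibitor day 2. They were the 2 called of 20 measured p53 targets (10%), and the call of GADD45A was lost without inhibitor day 2 replicate 1 or 2 or day 3 replicate 2 or 3 (adjusted p up to 0.145).

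Among 20 measured genes of the BCL2 family and cell death, 2 rose (10%) and 1 fell (5%). Of all genes 1.24% rose and 0.845% fell. CASP1, the inflammatory caspase that AIM2 inflammasomes activate, read 6.60, 6.99 and 6.47 at inhibitor day 3, against 5.42, 5.80 and 5.49 at inhibitor day 2. Its rise of 1.12 ± 0.17 (adjusted p = 0.00239) held without any single array, and its 4 other probe sets differed by 1.11 to 1.79. MCL1, an antiapoptotic BCL2 relative, rose by 0.35 ± 0.08, and BID, a proapoptotic one, fell by 0.24 on the log2 scale (adjusted p = 0.0348 and 0.0499). MCL1 lost its call without inhibitor day 2 replicate 1 or 2 or day 3 replicate 2 or 3, and BID without any array except inhibitor day 3 replicate 1 (adjusted p up to 0.171 and 0.210). SPRED2, a feedback inhibitor of RAS and MAPK signalling, was the 1 gene that rose of 36 measured TGF-beta, MAPK feedback and immediate early genes. This was 2.78% of the list, against 1.24% of all genes, and 4 members rose with the replicate block. SPRED2 read 8.71, 9.23 and 9.25 at inhibitor day 3 and 8.07, 8.23 and 8.24 at inhibitor day 2. Its rise of 0.88 ± 0.12 held without any single array (adjusted p up to 0.0229).

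The genes that fell had smaller differences and varied roles. VARS1, the valyl-tRNA synthetase, read 7.91, 7.85 and 7.92 at inhibitor day 3, against 8.38, 8.52 and 8.36 at inhibitor day 2, and fell by 0.53 on the log2 scale (SE 0.08, adjusted p = 0.00209). TSR1, an assembly factor of the small ribosomal subunit, read 9.70, 9.67 and 9.61 at inhibitor day 3 and 10.14, 10.07 and 10.14 at inhibitor day 2, and fell by 0.46 (SE 0.06, adjusted p = 0.00142). Both calls held without any single array (adjusted p up to 0.0229 and 0.0174). The groups were far apart compared with their own spread, since the SD of TSR1 was 0.05 at inhibitor day 3 and 0.04 at inhibitor day 2 (n = 3 each). For VARS1 and TSR1 the DMSO steps were -0.11 ± 0.08 and -0.09 ± 0.06, and the arms differed by -0.42 ± 0.11 and -0.37 ± 0.09 (unadjusted p = 0.00123 and 0.000312). The other probe set of VARS1 differed by -0.01, and the 3 others of TSR1 by -0.38, 0.04 and -0.00, so that not every probe set of these genes showed the fall.

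Of 37 measured genes of the MYC network and ribosome biogenesis, 7 fell (18.9%, against 0.845% of all genes) and 0 rose. The median difference was -0.22, against -0.05 in DMSO, and 32 differences were below 0. NOP16 and LYAR, nucleolar proteins of ribosome assembly, fell by 0.33 and 0.38, and CAD, the enzyme that starts pyrimidine synthesis, fell by 0.40 on the log2 scale. CAD read 8.66, 8.72 and 8.52 at inhibitor day 3 and 9.02, 9.09 and 8.98 at inhibitor day 2, and in none of the 7 genes did the groups overlap. MYC itself, at 12.01, 11.77 and 11.85 at inhibitor day 3 and 12.06, 11.76 and 11.82 at inhibitor day 2, differed by -0.00 ± 0.12. The abundant nucleolar genes NPM1 and NCL differed by -0.05 ± 0.06 and -0.16 ± 0.07 without passing. With the replicate block 15 members fell, and with 1 array left out between 1 and 9 fell. CAD, LYAR and NOP16 lost their calls without inhibitor day 2 replicate 1 or 2 or day 3 replicate 2 or 3 (adjusted p up to 0.131, 0.102 and 0.145).

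The letters CACGTG, the E-box read by MYC and related factors, occur in 19 of 108 RefSeq windows of genes that fell (17.6%), in 14 of 129 of genes that rose (10.9%) and in 1017 of 11469 of all genes (8.87%). They occur in 13 of 22 windows of the MYC and ribosome biogenesis list (59.1%), whichever way its members moved. Of the members of that list that fell and have a window, PES1 holds the letters, while TSR1, CAD, NOP16 and WDR12 do not. UTP4, a small-subunit assembly factor that fell by 0.34, is not in that list and was chosen after its values were seen. Its window shows the letters in capitals, 16 bases before the start.
UTP4 (chr16:69132608-69132648, plus strand, GRCh38.p14): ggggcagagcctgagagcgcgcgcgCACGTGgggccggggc
UTP4 read 10.34, 10.08 and 10.22 at inhibitor day 3, against 10.64, 10.51 and 10.50 at inhibitor day 2 (adjusted p = 0.0379).

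Genes of G1/S and DNA replication fell as well. Of 56 measured, 8 fell (14.3%) and 0 rose, 53 differences were below 0, and the median was -0.24, against -0.02 in DMSO. CDC25A, the phosphatase that releases CDK2, read 8.79, 8.54 and 8.67 at inhibitor day 3 and 9.25, 9.08 and 9.01 at inhibitor day 2. CCNE1, which encodes cyclin E, read 8.48, 8.15 and 8.18 at inhibitor day 3 and 8.84, 8.62 and 8.66 at inhibitor day 2. CDC25A and CCNE1 both fell by 0.44, CDC6 and MCM10, which license and fire replication origins, both by 0.41, and CDC45, POLD1, UNG and CHAF1A by 0.28 to 0.38 on the log2 scale. CCNE1 had a DMSO step of -0.29 ± 0.11, and the arms differed by -0.15 ± 0.15 (unadjusted p = 0.354). The replicate block gave 17 members that fell, and leaving out 1 array gave 0 to 5. The calls of CDC6 and MCM10 were lost without any of the 6 arrays, that of CCNE1 without any except inhibitor day 3 replicate 1, and that of CDC25A without inhibitor day 2 replicate 1 or 2 or day 3 replicate 2 or 3 (adjusted p up to 0.176, 0.142, 0.184 and 0.155). PCNA, the replication clamp, differed by -0.08 ± 0.08.

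E2F motif letters (TTTCCCGC, TTTGGCGC, TTTGCCGC or TTTCGCGC on either strand) occur in 11 of 108 windows of genes that fell (10.2%), in 4 of 129 of genes that rose (3.1%) and in 499 of 11469 of all genes (4.35%). In the G1/S list they occur in 20 of 36 windows (55.6%), whichever way its members moved. Of the members of that list that fell and have a window, CDC25A and CDC6 hold them, while CCNE1, MCM10 and CHAF1A do not.

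All 59 measured G2/M and mitosis genes had a difference below 0, with a median of -0.18, against 0.00 in DMSO. Of them 1 fell (1.69%, against 0.845% of all genes), BUB1B, a kinase-like checkpoint protein of the spindle. The replicate block gave 7 members that fell, and the block within each arm 9. BUB1B read 10.14, 10.18 and 10.11 at inhibitor day 3 and 10.44, 10.43 and 10.55 at inhibitor day 2, and fell by 0.33 on the log2 scale (adjusted p = 0.0468). That call was lost without any of the 6 arrays (adjusted p between 0.0742 and 0.179). The proliferation marker MKI67 differed by -0.27 ± 0.10 and CCNB1, cyclin B, by -0.14 ± 0.08 without passing. TRIP13 and SAPCD2, which act in the spindle checkpoint and in spindle orientation and are in no list, fell by 0.51 and 0.52. TRIP13 read 9.16, 9.04 and 9.02 at inhibitor day 3, against 9.71, 9.52 and 9.53 at inhibitor day 2, and SAPCD2 read 8.46, 8.09 and 8.09 at inhibitor day 3, against 8.87, 8.62 and 8.70 at inhibitor day 2. Both lost their calls without inhibitor day 2 replicate 1 or day 3 replicate 2 or 3 (adjusted p up to 0.0862 and 0.102). In these bulk samples a smaller share of cycling cells and less RNA per cell cannot be told apart.

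The other leading genes that fell have varied roles. GPI, an enzyme of glycolysis, averaged 10.10 ± 0.12 at inhibitor day 3 and 10.58 ± 0.09 at inhibitor day 2 (SD, n = 3 each), and fell by 0.48 (SE 0.09, adjusted p = 0.00902), with a DMSO step of 0.05 ± 0.09. It was the 1 gene called of 33 measured in glycolysis, the pentose phosphate pathway and hypoxia (3.03%, while 0.845% of all genes fell). NT5DC2, a nucleotidase-like protein, fell by 0.53, and the noncoding transcripts DANCR and DLEU1 by 0.52 and 0.50. ZFP36L2, an RNA-binding protein that destabilises mRNA, and CD320, the receptor for the vitamin B12 carrier, fell by 0.50 and 0.49. NAAA, a lysosomal amidase, and VASN, a membrane protein that binds TGF-beta, fell by 0.47 and 0.48, and FKBP4, an HSP90 co-chaperone, by 0.37 on the log2 scale. FKBP4 was the 1 member that fell of 18 measured cytosolic heat shock genes (5.56%, against 0.845% of all genes). With the replicate block 2 members fell. In each of the genes named in this paragraph the inhibitor day 3 arrays lay below all inhibitor day 2 arrays, a condition for naming all but FKBP4. For each of them inhibitor day 3 replicate 3 was among the arrays without which the call was lost (adjusted p up to 0.129). VASN had a higher day 2 level than its neighbours in time, with a mean of 6.71 at inhibitor day 1, 6.95 at day 2 and 6.47 at day 3, and its third-day step lay 0.72 below its second-day step (unadjusted p = 0.00108, adjusted p = 1.00).

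Some of the genes that rose in inhibitor had like differences in DMSO. Of 31 measured genes of cholesterol and fatty acid synthesis and transport, 6 rose (19.4%) and 0 fell, and the median was 0.19 in the inhibitor arm and 0.27 in DMSO. INSIG1, the sterol-sensing anchor of the SREBP pathway, read 10.73, 10.99 and 11.03 at inhibitor day 3, against 10.05, 10.33 and 10.38 at inhibitor day 2. In DMSO it read 10.83, 10.95 and 10.82 at day 3 and 10.03, 10.47 and 10.18 at day 2. The steps of INSIG1 were 0.66 ± 0.12 in inhibitor (adjusted p = 0.0102) and 0.64 ± 0.12 in DMSO, and differed by 0.02 ± 0.18 (unadjusted p = 0.902). SCD, the desaturase of saturated fatty acids, rose by 0.48 ± 0.11 in inhibitor and differed by 0.44 ± 0.11 in DMSO. MYLIP, a ligase that degrades the LDL receptor, rose by 0.54 ± 0.13 in inhibitor and differed by 0.41 ± 0.13 in DMSO. ABCA1, the cholesterol exporter, rose by 1.04 ± 0.26 in inhibitor and differed by 0.27 ± 0.26 in DMSO, a difference of 0.77 ± 0.37 between the arms (unadjusted p = 0.0487). The count of 6 was 9 with the replicate block, 7 without inhibitor day 3 replicate 1, 5 without day 2 replicate 3, 1 without day 2 replicate 2, and 0 without day 2 replicate 1 or day 3 replicate 2 or 3.

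SLC25A43 was the 1 gene called of 33 measured mitochondrial carriers and fatty acid oxidation genes (3.03%, while 1.24% of all genes rose). It stood higher in inhibitor than in DMSO on every array of these days. In inhibitor it read 7.25, 7.42 and 7.28 at day 3 and 6.67, 6.91 and 6.62 at day 2. In DMSO it read 5.04, 5.12 and 5.11 at day 3 and 4.37, 4.58 and 4.63 at day 2. It rose by 0.58 ± 0.11 in inhibitor (adjusted p = 0.00974) and differed by 0.56 ± 0.11 in DMSO. HDAC9, a histone deacetylase, rose by 0.88 ± 0.23 and differed by 0.71 ± 0.23 in DMSO, while CREBBP, a histone acetyltransferase often mutated in these lymphomas, rose by 0.45 ± 0.11 and differed by 0.20 ± 0.11 in DMSO. HDAC9 and CREBBP were the 2 called of 30 measured chromatin modifiers outside the Polycomb complexes (6.67%, while 1.24% of all genes rose). The other probe sets of HDAC9 differed by 0.09 to 0.40. The calls of HDAC9, CREBBP, MYLIP and ABCA1 were lost without any single array except inhibitor day 3 replicate 1 (adjusted p up to 0.220, 0.209, 0.200 and 0.171), that of SCD without inhibitor day 2 replicate 1 or 2 or day 3 replicate 2 or 3 (up to 0.121), and those of INSIG1 and SLC25A43 without day 2 replicate 1 or day 3 replicate 2 or 3 (up to 0.0722 and 0.0739).

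**Figure D3:**
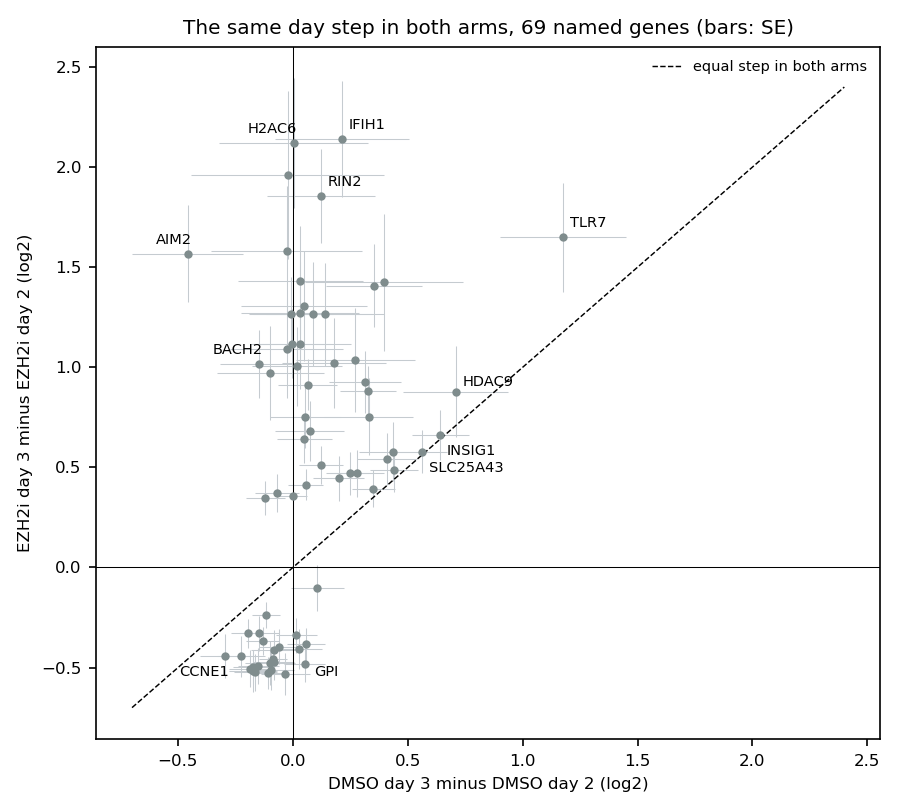
Day 3 minus day 2 (log2) in the inhibitor arm (vertical axis) against the same step in DMSO (horizontal axis) for 69 named genes, with bars of 1 SE and a dashed line where both steps are equal. IFIH1 and H2AC6 lie above 2 in inhibitor and near 0 in DMSO, while INSIG1, SLC25A43 and SCD lie on the dashed line.

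Amino acid and ER stress genes differed more between days in the DMSO arm than in the inhibitor arm, although 0 of them passed limma's test in either or between the arms. In inhibitor 4 of them fell with the replicate block, and 3 with the block within each arm. Over 45 measured members the median step was -0.12 in inhibitor and 0.42 in DMSO, and the arms differed with the inhibitor step lower for 24 members at an unadjusted p under 0.05 (background 3.14% of genes). ASNS, asparagine synthetase, read 10.76, 10.59 and 10.55 at inhibitor day 3 and 10.78, 10.82 and 10.81 at inhibitor day 2, while in DMSO it read 11.01, 13.02 and 12.60 at day 3 and 10.94, 11.22 and 10.95 at day 2. Its arms differed by -1.34 ± 0.42 (unadjusted p = 0.00406, adjusted p = 0.407). CHAC1, which degrades glutathione in the same stress response, read 5.21, 8.70 and 8.30 at DMSO day 3 and 5.58, 5.56 and 5.42 at inhibitor day 3. DMSO day 3 replicate 1 therefore stayed at the DMSO day 2 level and replicates 2 and 3 stood above it, and the median member lay at 0.09, 0.88 and 0.58 on these 3 arrays relative to its inhibitor day 2 mean. Without DMSO day 3 replicate 1, the test of the difference between the arms called 8 genes higher and 51 lower, and without inhibitor day 3 replicate 1 it called 30 higher and 1 lower. Differences between the arms in this step thus rest in part on which arrays stand for DMSO day 3, and the cause was not tested.

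**Figure D4:**
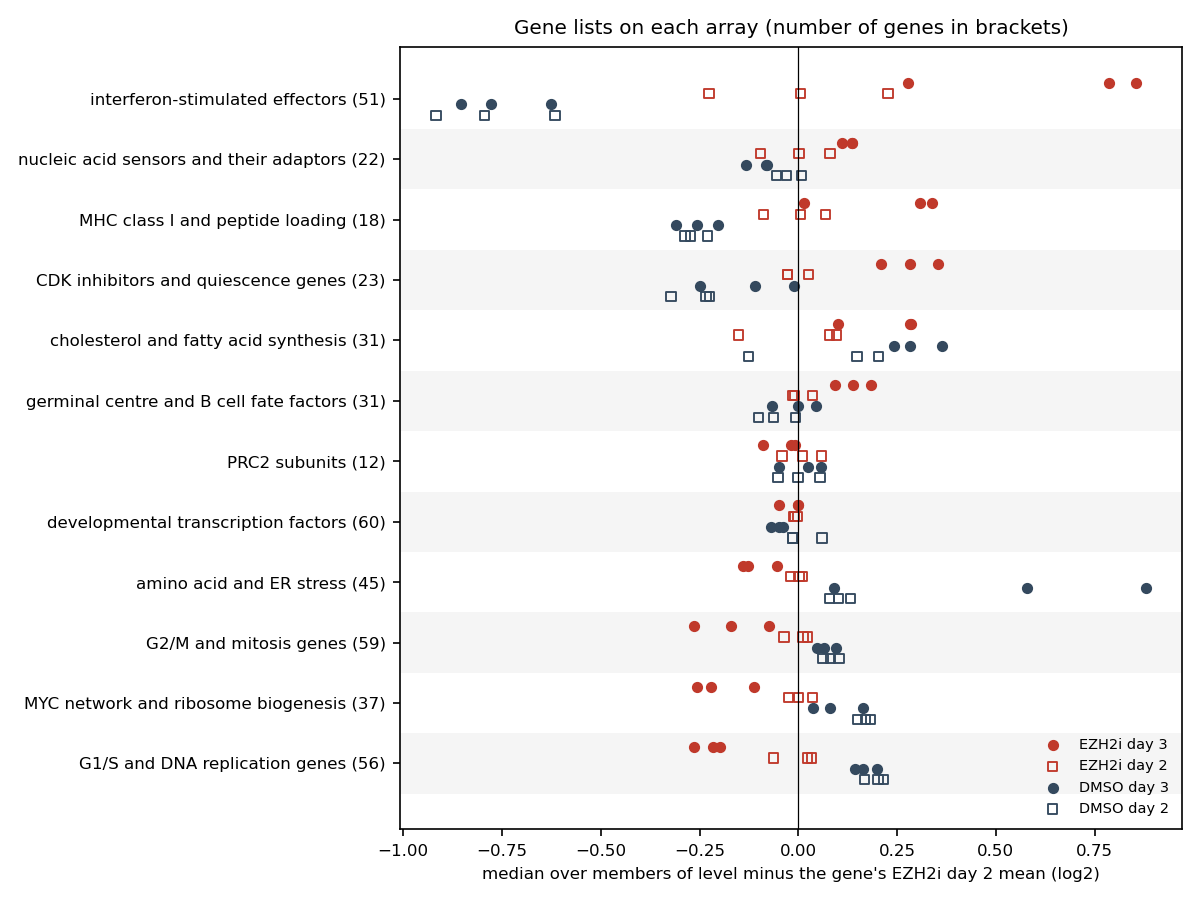
For 12 gene lists (number of genes in brackets), the median over members of the level minus the gene's own inhibitor day 2 mean (log2) on each array of inhibitor day 3, inhibitor day 2, DMSO day 3 and DMSO day 2. The interferon-stimulated effectors lie at 0.28, 0.85 and 0.79 on the inhibitor day 3 arrays, and the amino acid and ER stress genes at 0.09, 0.88 and 0.58 on the DMSO day 3 arrays.

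The targeted enzyme and its complex did not pass the test over this day. EZH2 (probe set 203358_s_at) read 10.08, 9.97 and 9.94 at inhibitor day 3, against 10.23, 10.08 and 9.97 at inhibitor day 2, a difference of -0.10 ± 0.12 (adjusted p = 0.749). An inhibitor acts on the enzyme's activity, so its transcript is no check of the treatment. Of 12 measured PRC2 subunits and 18 of PRC1, 0 rose and 0 fell by limma, with medians of -0.03 and -0.00, and 1 PRC2 gene, PHF19, fell with the replicate block. PHF19, a PRC2 accessory subunit, came closest at -0.36 ± 0.10 (adjusted p = 0.0724). Among 60 measured developmental transcription factors, the classical targets of Polycomb silencing, 0 rose and 0 fell, with a median of -0.02 and 25 differences above 0 (2 rose with the replicate block). SOX9 and MEIS1, at means of 9.80 and 6.78 at inhibitor day 3, differed by 0.47 ± 0.23 and 0.56 ± 0.21 without passing. B cell receptor genes (29 measured) and B cell identity markers (7 measured) also had 0 calls by limma without the block, and with the replicate block 5 and 2 of them rose. The 7 identity markers stood between 8.59 and 12.95 at inhibitor day 3 and between 8.03 and 12.64 at inhibitor day 2, with MS4A1, which encodes CD20, the highest. T and NK cell markers, and markers of stroma, endothelium and epithelium, had medians of 4.82 and 4.63 at inhibitor day 3 and 4.90 and 4.69 at inhibitor day 2, with CD3G (10.91) and DCN (13.48) the highest at day 3. Neither CD3G nor DCN differed between the days beyond the spread (-0.17 ± 0.22 and 0.22 ± 0.13).

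The arrays of days 1 and 6 show where the called genes stood before and after the third-day step. They do not enter its difference but do enter the shared estimate of the spread that called the genes. The counts below are therefore not fully independent of that selection. At day 6, 236 of the 246 genes that rose were higher in inhibitor than in DMSO and 2 were lower (adjusted p under 0.05), against 18.5% and 26.9% of all genes, and their median difference between the arms was 1.57, against -0.11 for all genes. Of the 167 genes that fell, 155 were lower and 1 higher at day 6, with a median of -0.95. At day 1, 19 of the 246 were already higher in inhibitor, against 0.475% of all genes, and 0 of the 167 were lower, against 0.0101%. H2AC6 went on rising by 2.82 between inhibitor day 3 and day 6 (adjusted p = 1.41e-06), BACH2 by 1.91 and MPEG1 by 3.36, while IFI16 rose by 0.45 and LYZ differed by 0.26 (adjusted p = 0.539). INSIG1 and SCD, which had like steps in both arms over the third day, fell by 0.91 and 1.24 between inhibitor day 3 and day 6.

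**Figure D5:**
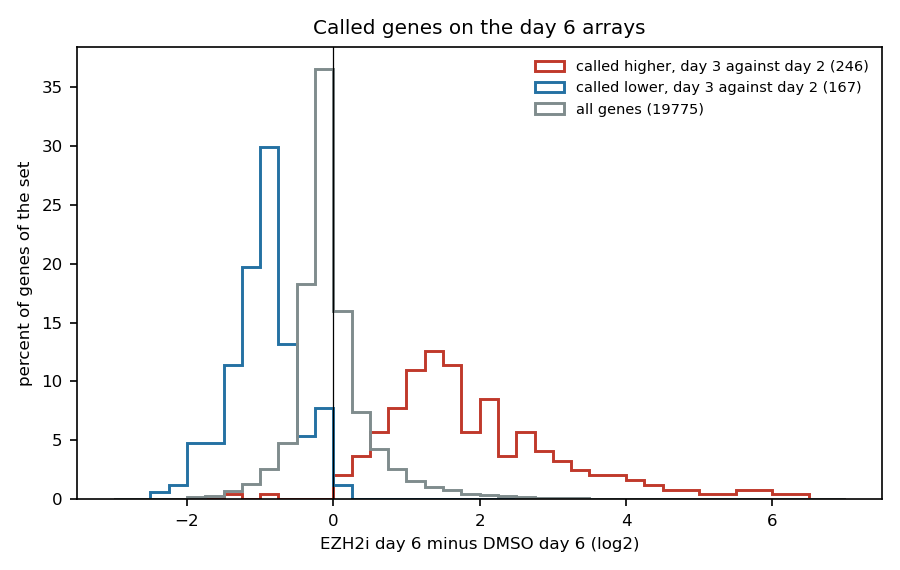
Difference between inhibitor day 6 and DMSO day 6 (log2, horizontal axis) for the 246 genes that rose over the third day, the 167 that fell and all 19775 genes, as the percent of the genes of each set in each bin (vertical axis). The median is 1.57 for the genes that rose, -0.95 for those that fell and -0.11 for all genes.

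Of the 413 genes called, 269 have further probe sets, 567 in all, of which 471 had a difference of the same sign, 61 were called in the same direction and 0 in the opposite one. Averaging the probe sets of each gene ended the call of 23 genes named by rule, for example TP53INP1 (0.19, adjusted p = 0.0955), TAP2 (0.23, 0.207), CREBBP (0.19, 0.337), MCL1 (0.17, 0.424), VARS1 (-0.27, 0.0542) and TSR1 (-0.20, 0.0763).

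Some large differences did not pass the test, and these genes were chosen after their values were seen. EGR1, an immediate early gene, read 6.22, 6.48 and 9.46 at inhibitor day 3 and 6.42, 5.34 and 5.16 at inhibitor day 2, with replicate 3 of day 3 standing apart, and its difference of 1.75 ± 0.60 had an adjusted p of 0.141. In DMSO EGR1 differed by 1.90 ± 0.60. CXCR4, the chemokine receptor of the dark zone, differed by 1.18 ± 0.35 (adjusted p = 0.0868, and 0.00453 with the replicate block). LTA, a lymphotoxin gene, read 7.10, 7.08 and 6.79 at inhibitor day 3 and 8.12, 7.79 and 7.47 at inhibitor day 2, against 9.49, 9.53 and 9.03 at DMSO day 3 and 9.31, 9.38 and 8.64 at DMSO day 2. Its difference of -0.80 ± 0.22 in inhibitor (adjusted p = 0.0642) stood beside 0.24 ± 0.22 in DMSO, and with the replicate block its adjusted p was 0.00018.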

How the data were processed

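Biotin-labelled RNA, extracted with Trizol, was measured on Affymetrix U133 Plus 2 arrays, 3 in each of 8 groups. Per the submitters' processing notes the deposited values come from RMA run under R 2.10.1, and they were used as log2 expression. The log base is not stated there, and it was taken from the range of the deposited values (1.72 to 14.33). RMA gives no detection call and understates differences of dim genes. Arrays carry no read depth, and their number limits the precision. Of 54613 probe sets, 41091 have a single symbol in the platform annotation, of which 41037 were updated through RefSeq, giving 19775 genes.

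One coefficient per group was fitted over all 24 arrays with limma 3.58.1 (R 4.3.3) and moderated by eBayes, so that all groups share the estimate of the spread. P-values were adjusted by Benjamini-Hochberg over all 19775 genes, and a gene was called at an adjusted p under 0.05. With 3 arrays per group, exact permutation of a single gene gives at best p = 0.1. The procedure was tested on simulated data. Genes are named by rule: the called genes with the largest differences in each direction whose arrays do not overlap, and, from every list, up to 4 called members that differed most. For the leading genes in each direction the lack of overlap was thus a condition and is no further support. Other genes given for context were chosen after their values were seen. The genes and the 32 lists were chosen with earlier results of these data known. Promoter windows are RefSeq's on GRCh38.p14.

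Same-numbered arrays deviated together between inhibitor day 3 and day 2 (r = 0.44, 0.26 and 0.40 for numbers 1, 2 and 3). Between DMSO day 3 and day 2 r was 0.26, 0.09 and 0.47, and between the arms at day 3 it was 0.38, 0.19 and 0.37. The counts with the number as a block are therefore given beside the list counts, except where it added at most 1 member. Alternatives covered the block, scaling, weights, filters, the choice of probe set and single arrays left out.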

Additional observations from a re-analysis of the deposited data

How the results depend on the processing

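With the replicate block, 634 genes rose and 521 fell over the third day, and 9 were higher and 2 lower between the arms. With the replicate block within each arm these counts were 613, 475, 15 and 2. For the inhibitor step the block changed no call of a gene named by the rule, whereas between the arms AIM2, H2AC6, H2BC5 and TP53INP1 gained a call. Fitting only the groups compared ended 65 of those calls and averaging probe sets 23. When only the arrays of the groups compared were fitted, 13 rose and 0 fell. With array weights 455 rose and 335 fell, 39 and 8 were called in DMSO, and 13 and 3 between the arms. Subtracting array medians called 1 gene higher in DMSO, and leaving out the dimmest 40 percent of genes gave 269 that fell. Without all arrays numbered 1, 29 fell, 66 and 6 were called in DMSO, and 12 and 22 between the arms. Without all numbered 2, 0 rose and 0 fell, and without all numbered 3, 1 rose and 1 fell. Leaving out single arrays gave 21 to 379 genes that rose and 5 to 218 that fell. In DMSO it gave 0 to 111 higher and 0 to 18 lower, and between the arms 0 to 30 higher and 0 to 51 lower. The smaller groups are part of the alternatives that leave arrays out, and the cause of the other shifts was not tested. No gene named by rule reversed the direction of its inhibitor step under any of these alternatives. Reversals of list medians or of differences between the arms were not looked for.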

Other observations

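Further families, picked by symbol after the values were seen and given without a test, are listed with their counts, beside 0.845% of all genes that fell and 1.24% that rose. Of 72 measured mitochondrial ribosomal proteins, which make up the ribosome of mitochondria, 6 fell (8.33%) and 0 rose, 70 differences were below 0, and the median was -0.17 in inhibitor and -0.03 in DMSO. Of 31 aminoacyl-tRNA synthetases, which charge tRNAs, 3 fell (9.68%), FARSB, MARS2 and VARS1, and 30 differences were below 0. Of 18 centromere proteins, 4 fell (22.2%), CENPW, CENPM, CENPX and CENPV, with a median of -0.15. In the other direction, 4 of 55 TRIM family genes rose (7.27%), TRIM22, TRIM69, TRIM5 and TRIM4, while the median of the family was -0.04. Of 4 measured subunits of the soluble guanylate cyclase that nitric oxide activates, 2 rose (50%) and the differences of the other 2 were below 0. GUCY1A1 and GUCY1B1 rose by 0.73 and 0.81 (limma, adjusted p = 0.0160 and 0.0196).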
